A study of Mus musculus with 6 samples.

Results

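Genomic imprinting leaves 1 parental copy of a gene silent according to the parent it came from. The genes examined here are 39 members of 16 imprinted mouse loci, out of 57010 genes in the deposited count table. The loci were chosen by name because they are known for transcripts running opposite to one another. Earlier results of these data were known when the members were chosen. Of the members, 38 were found by gene symbol and ENSMUSG00002075463.1, which has no symbol in the annotation used, by its identifier. Their levels were compared between 3 wild-type mouse embryonic stem cell (ESC) cultures and 3 wild-type cultures of primary cortical neurons, prepared from embryonic cortex (day 16.5) and grown 7 days in vitro. Per the labels, neither group received a perturbing treatment and both serve as reference points between stem cell and neuron. The library names of neuron replicates 2 and 3 hold the word "empty", whose meaning is not given, and that of replicate 1 does not. The labels name neither the strain nor the parental alleles, the counts are not split by allele, and so the parental origin of each transcript was not measured.

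At an imprinted locus, a differentially methylated control region sets which parental copy of the cluster is used. Many clusters include a long noncoding RNA that runs opposite to a protein-coding gene, such as Airn opposite Igf2r, Kcnq1ot1 opposite Kcnq1, and the long Snhg14 transcript opposite Ube3a. The zinc finger protein ZFP57 binds a methylated motif at many control regions and recruits TRIM28, which keeps the mark through early divisions of the embryo.

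The label of sense and antisense pairs held for a fraction of the members. From the exon positions in the deposited table, 17 of the 39 members (43.6%) had at least 1 exonic base in common with an opposite-strand gene, where 16.8% of all genes in the table did. The loci were chosen for opposite transcripts, so these shares describe the choice and are not a test. Another 6 lay only opposite introns, and 16 had no gene opposite. Igf2r and Airn belong to the second kind: their spans overlap on chromosome 17, but the exons listed for them share no base. The 17 members faced 32 distinct genes, of which 24 are not members and 10 carry no symbol.

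Rtl1 is the member with the most opposite genes. It encodes a retrotransposon-derived protein made from the paternal copy in placenta and other tissues, and its maternal opposite transcript carries microRNAs that can pair perfectly with the Rtl1 message. All 6 genes that share exonic bases with Rtl1 in the table are microRNA genes. Their mature sequences are shown because they are the antisense side of this pair, written 5′ to 3′ with the seed (bases 2 to 8) in capitals. The sequences come from RefSeq (GRCm38.p6).
mmu-miR-431-5p: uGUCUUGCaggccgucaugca
mmu-miR-431-3p: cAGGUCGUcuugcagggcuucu
mmu-miR-433-5p: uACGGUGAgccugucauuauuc
mmu-miR-433-3p: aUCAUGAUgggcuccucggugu
mmu-miR-127-5p: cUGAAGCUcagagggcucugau
mmu-miR-127-3p: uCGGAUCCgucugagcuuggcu
mmu-miR-434-5p: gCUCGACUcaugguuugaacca
mmu-miR-434-3p: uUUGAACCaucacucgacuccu
mmu-miR-432: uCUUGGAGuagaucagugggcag
mmu-miR-136-5p: aCUCCAUUuguuuugaugaugg
mmu-miR-136-3p: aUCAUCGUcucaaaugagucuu
Each of the 11 mature sequences had its reverse complement in the Rtl1 transcript over its full length, and the 11 seeds were all distinct. The 6 microRNA genes had 0 counts in every library, and the libraries were made from polyadenylated RNA.

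Promoter windows of 300 bases (250 before to 50 after the annotated start, RefSeq GRCm38.p6) were found for 28 members, 42 windows in all. The ZFP57 motif TGCCGC, searched on both strands, occurred in 12 of these windows (28.6%) and in 11.6% of all 32851 windows. A window of members held a median of 16.5 CpG dinucleotides and a window of all genes 7. The windows of Peg3 and Usp29, divergent neighbours, share 263 bases. Both matching windows of Mest (chr6:30737800-30738099 and chr6:30737803-30738102) are nearly the same sequence, and each is counted among the 12. The 11 members with a match were Commd1, Copg2, Grb10, Igf2, Mcts2, Meg3, Mest, Nnat, Plagl1, Snrpn and Zim1. The windows of the 3 among them that passed the test between the cell types are shown, with the match, which lies on the opposite strand as GCGGCA, in capitals. They lie at chr2:157559828-157560127 on the plus strand, chr12:109540746-109541045 on the plus strand and chr11:12037371-12037670 on the minus strand.
Nnat: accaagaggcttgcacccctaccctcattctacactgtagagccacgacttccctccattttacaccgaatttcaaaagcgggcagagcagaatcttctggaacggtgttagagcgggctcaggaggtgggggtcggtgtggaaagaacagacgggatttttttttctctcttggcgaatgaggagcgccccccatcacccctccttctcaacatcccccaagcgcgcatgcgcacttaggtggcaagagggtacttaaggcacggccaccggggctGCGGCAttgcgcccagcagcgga
Meg3: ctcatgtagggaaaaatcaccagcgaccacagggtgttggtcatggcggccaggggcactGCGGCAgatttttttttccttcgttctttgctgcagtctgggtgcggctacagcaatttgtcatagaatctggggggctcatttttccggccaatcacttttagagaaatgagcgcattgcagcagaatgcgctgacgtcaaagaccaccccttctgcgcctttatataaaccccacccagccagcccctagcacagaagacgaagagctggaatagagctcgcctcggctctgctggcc
Grb10: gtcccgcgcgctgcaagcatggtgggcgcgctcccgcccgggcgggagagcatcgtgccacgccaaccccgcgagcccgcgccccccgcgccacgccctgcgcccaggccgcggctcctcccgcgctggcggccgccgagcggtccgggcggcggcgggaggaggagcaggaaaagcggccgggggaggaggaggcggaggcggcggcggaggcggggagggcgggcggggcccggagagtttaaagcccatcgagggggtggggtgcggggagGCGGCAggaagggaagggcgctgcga
These windows describe the sequence alone, since no methylation or binding was measured.

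The libraries were shallow. The ESC totals lay between 1368303 and 1775055 counts and the neuron totals between 513425 and 624792, so a count of 3 stood for 2.26 to 2.90 CPM in ESC (counts scaled to a common library size by the trimmed-mean method) and 3.92 to 4.81 in neurons. Whether the kit marked strand, and whether the counting used it, is not given in the sources used here. Each value below is the count as the table assigned it to a gene name. Should reads have been counted with the setting opposite to the kit's, a value under a gene's name would be of reads antisense to it, and sense and antisense values would be exchanged in every pair. This was not tested by a second counting, and the following values bear on it. Genes with no gene opposite make up 72.6% of the table and held 6.97% to 7.92% of all counts in ESC and 6.91% to 7.31% in neurons, while genes sharing exonic bases with an opposite gene held 90.9% to 91.9% and 88.5% to 89.4%. The mitochondrial gene mt-Nd6, the lone protein gene on its strand, held 68.3% to 86.3% of the counts of mitochondrial protein genes in ESC and 32.9% to 36.8% in neurons. The words "rose" and "fell" below are therefore of counts under a gene's name, not of its sense transcript. The labels' batch entry equals the group, so batch and cell type cannot be told apart. Nothing states that the replicates came from separate cultures or animals, and p-values then measure the spread between these libraries, which may be technical.

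Markers of the labelled cell types were checked by the same counts. All 5 tested ESC markers fell in neurons, and the 10 on the list summed to 160.6 to 235.3 CPM in ESC and 2.61 to 4.81 in neurons. The 12 neuron markers summed to 84.2 to 85.1 CPM in ESC and 64.1 to 80.9 in neurons, with Rbfox3, Neurod6, Snap25 and Slc17a6 at 0 in ESC. Of the 3 neuron markers tested, Map2 (0, 0 and 1 counts in ESC, 10, 13 and 13 in neurons) rose, while Stmn2 and Slc17a7 (64, 49 and 54 against 2, 1 and 0) fell, so the neuron list as a whole did not follow the labels. Summed CPM of the 7 astrocyte markers was 5.80 to 10.9 in ESC and 20.8 to 41.8 in neurons, that of the 6 oligodendrocyte lineage markers 23.3 to 28.1 and 22.4 to 43.1, and that of the 5 microglia markers 201 to 266 and 130 to 145. Of that last sum Csf1r carried 211 ± 33.9 CPM in ESC and 126 ± 6.21 in neurons (SD, n = 3 each), Cx3cr1 13.8 and 6.10 and Aif1 2.58 and 4.77, with P2ry12 at 0 and 1.90 and Tmem119 at 0 in both. The other lists stayed low: 6 fibroblast markers at 1.51 to 6.77 and 1.49 to 2.61 CPM, 4 endothelial markers at 1.51 to 6.33 and 0 to 2.98, and 5 extraembryonic markers at 0 to 1.93 and 1.49 to 2.61. The part of other cell types in the results below was not tested, and in bulk RNA fewer cells of a type and less RNA per cell cannot be told apart.

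**Figure D1:**
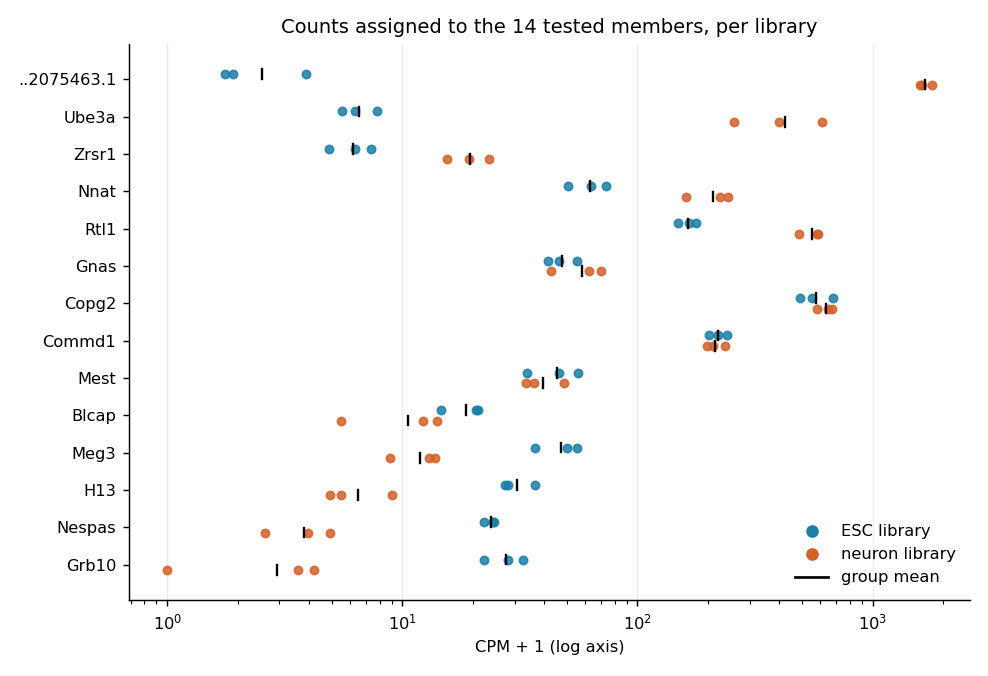
CPM + 1 (log axis) of the 14 tested members, 1 point per library in blue (ESC) or orange (neuron) with a tick at each group's mean, ordered by log2 fold change. ENSMUSG00002075463.1 (shown by its last digits) and Ube3a stand high in all 3 neuron libraries and near the floor in all 3 ESC libraries, while Copg2 and Commd1 lie together in all 6.

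The tested imprinted members split evenly. Of the 14 with enough counts to be tested, 5 rose in neurons (Nnat, ENSMUSG00002075463.1, Rtl1, Ube3a and Zrsr1), 5 fell (Blcap, Meg3, Nespas, Grb10 and H13), and Gnas, Mest, Copg2 and Commd1 did not pass the threshold (edgeR quasi-likelihood test, Benjamini-Hochberg adjusted p under 0.05). The share called was 71.4%, against 85.6% of all 7150 genes tested, of which 47.0% rose and 38.6% fell. The median log2 fold change was 0.05 over the 14 members and 0.37 over all genes tested. By structure, 10 of the 14 share exonic bases with an opposite gene: the 5 that rose, Nespas, and the 4 that did not pass. Of the others, which all fell, Meg3, Grb10 and H13 have no gene opposite and Blcap lies opposite introns only. Among all genes tested, 84.6% of those sharing exonic bases (4674 genes) and 87.4% of the others were called. Of the first set 41.2% rose and 43.4% fell, and of the others 57.9% and 29.5%. Whether direction and structure are linked among the members was not tested. The split of directions depended on scaling: 8 rose and 4 fell with total counts, 7 and 4 with upper-quartile factors, and 5 and 9 when the scaling factors came only from genes sharing no exonic base. Of the 39 members, 25 were not tested, 14 of them with at most 3 counts in any library. The count filter sets a level relative to each library's total, so the shallower neuron libraries needed fewer counts than ESC to pass. Usp29, with 30, 12 and 19 ESC counts, was not tested, while Zrsr1, with 14, 15 and 9 neuron counts, was. Members low in 1 group, such as Ube3a and Grb10, were tested only through the other, which in part sets their direction. The even split thus describes the members that passed the filter.

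The members' summed counts went from 0.0942% to 0.107% of the total in ESC to 0.441% to 0.496% in neurons. ENSMUSG00002075463.1 alone held 0.111% of the members' counts in ESC and 43.1% ± 0.971 (SD, n = 3) in neurons. Copg2 held 43.0% and 16.3%, Rtl1 12.3% and 14.3%, Commd1 16.6% and 5.54%, and Ube3a 0.414% and 10.7%. In neurons 98.1% to 99.0% of the members' counts fell on members with a shared exonic base, against 86.2% to 90.0% in ESC. These sums rest in large part on ENSMUSG00002075463.1, chosen with earlier results of these data known, and are not a test. The sums without it were not worked out.

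The Nnat locus on chromosome 2 held the largest change among the tested members, which were chosen with earlier results of these data known. Nnat encodes neuronatin, a small membrane protein of the developing brain expressed from the paternal copy, and sits within an intron of Blcap on the opposite strand. The unnamed gene ENSMUSG00002075463.1, at chr2:157404281-157404367 on the minus strand (positions as in the deposited table, for which the processing notes name GRCm39), is an 87-base single exon that lies wholly opposite an exon of Nnat (chr2:157401998-157404442, plus strand). ENSMUSG00002075463.1 had 1, 3 and 1 ESC counts and 1246, 1202 and 990 neuron counts, which is 1.52 ± 1.20 and 1668 ± 108 CPM (SD, n = 3 each). The groups did not overlap, and the log2 fold change was 10.04 (adjusted p = 4.72e-32 by edgeR, SE 0.22). The few ESC counts set the size of this change: without ESC replicate 2, which has 3 of the 5, the log2 fold change was 10.70.

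Nnat itself had 66, 75 and 69 ESC counts and 186, 107 and 139 neuron counts. Its level went from 61.6 ± 11.5 to 208 ± 43.5 CPM (SD, n = 3 each) with no overlap, a log2 fold change of 1.77 (adjusted p = 3.94e-11 by edgeR, SE 0.18), or 3.41-fold. Blcap, a gene named for its loss in bladder cancer, had 26, 14 and 22 ESC counts and 10, 3 and 7 neuron counts. It fell by 0.87 on the log2 scale (adjusted p = 0.0428 by edgeR, SE 0.40), near the threshold, and with total-count scaling the value was -0.14 (edgeR adjusted p = 0.745).

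Within the pair, the share of counts assigned to Nnat was 97.7% ± 1.38 in ESC and 11.2% ± 2.61 in neurons (SD, n = 3 each). The table thus assigned nearly all counts of this pair to Nnat in ESC and most of them to the 87-base opposite exon in neurons. By the exact two-sided permutation test p = 0.1, and 3 against 3 libraries allow none smaller.

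**Figure D2:**
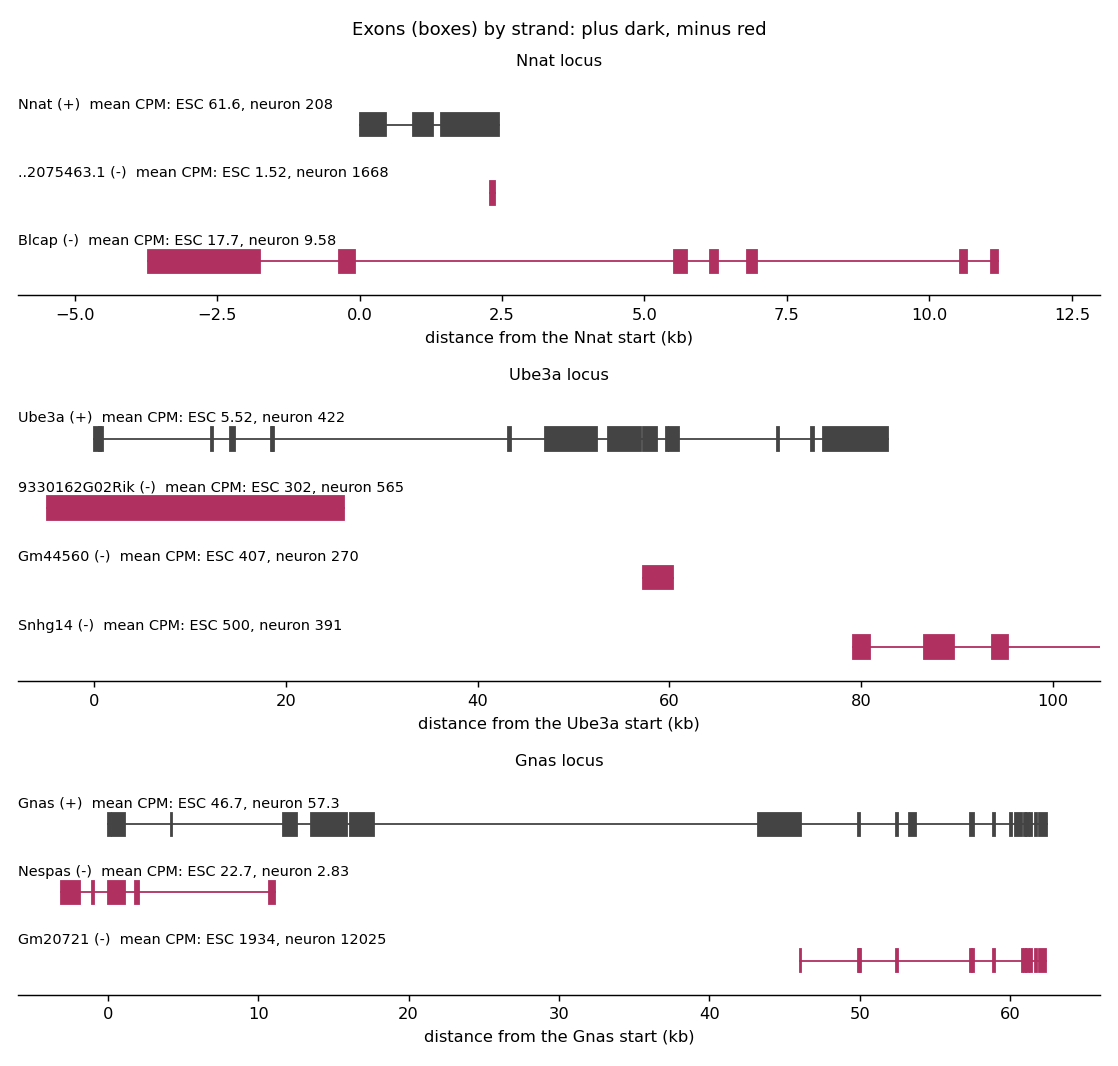
Exons (boxes) of members and genes opposite them at the Nnat, Ube3a and Gnas loci, by distance in kb from the start of the named gene, plus strand dark and minus strand red, with Snhg14 running past the right edge, each gene with its mean CPM in ESC and in neurons. At Nnat the short minus-strand gene lies inside an exon of Nnat and carries 1668 CPM in neurons.

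At the Dlk1-Dio3 locus on chromosome 12, Rtl1 rose and Meg3 fell in neurons, and the other members had too few counts to test. Rtl1 (chr12:109555627-109566764, minus strand) had 218, 183 and 163 ESC counts and 443, 325 and 364 neuron counts, or 163 ± 14.8 and 549 ± 55.8 CPM (SD, n = 3 each). The groups did not overlap, and the log2 fold change was 1.75 (adjusted p = 2.13e-15 by edgeR, SE 0.13). Meg3, a long noncoding RNA of the maternal copy (chr12:109506879-109538165, plus strand), went the other way, with 65, 37 and 60 counts in ESC and 6, 8 and 8 in neurons. Its level was 46.3 ± 9.52 CPM in ESC and 10.9 ± 2.66 in neurons, and it fell by 2.11 on the log2 scale (adjusted p = 2.60e-07 by edgeR, SE 0.33), or 4.31-fold. Rian and Mirg, noncoding RNAs that host small RNAs, lie at higher positions than Rtl1 and on the plus strand, like Meg3. Both had too few counts to test. Rian had 14, 8 and 15 ESC counts and 3, 5 and 4 neuron counts. Mirg had 2, 4 and 4 ESC counts and no neuron count. With 3 counts over the neuron group taken as the floor, its rate was 1.98-fold lower in neurons. That value leaves out the counting error of the ESC counts. The 95% counting interval of the Mirg rate ratio (ESC over neuron, exact conditional) starts at 1.33. Dlk1, a membrane ligand, had 1 count in all 6 libraries, and Dio3, a thyroid hormone deiodinase, had 1, 0 and 4 in ESC and 0 in neurons.

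The Gnas locus carried the pair with the most counts. Gnas encodes the stimulatory G protein alpha subunit and its alternative products, and Nespas is the antisense RNA that starts near its upstream promoters. Gnas (chr2:174126113-174188537, plus strand) had 60, 56 and 45 ESC counts and 53, 41 and 26 neuron counts, and its log2 fold change of 0.31 (adjusted p = 0.212 by edgeR, SE 0.24) did not pass. Nespas (chr2:174123024-174137229, minus strand) had 31, 22 and 26 ESC counts and 3, 2 and 1 neuron counts, falling from 22.7 ± 1.24 to 2.83 ± 1.16 CPM (SD, n = 3 each). It fell by 2.91 on the log2 scale (adjusted p = 9.61e-07 by edgeR, SE 0.48), with no overlap between the groups.

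A gene model with no described function, Gm20721, lies opposite the downstream part of Gnas at chr2:174172112-174188505 and shares 1469 of its 1484 exonic bases with it. Gm20721 had 2557, 1825 and 2334 ESC counts and 9059, 8137 and 7566 neuron counts, which is 1934 ± 173 and 12025 ± 175 CPM (SD, n = 3 each). It rose by 2.64 on the log2 scale (adjusted p = 1.72e-25 by edgeR, SE 0.09). Per kilobase of exon, Gm20721 stood at 1303 CPM in ESC and 8103 in neurons, and Gnas at 4.10 and 5.03. The share of the pair assigned to Gnas was 2.39% in ESC and 0.48% in neurons. Against Nespas, the share of Gnas was 67.0% ± 4.31 in ESC and 95.4% ± 0.83 in neurons, with no overlap (exact two-sided permutation p = 0.1). Nespas also faces the unnamed ENSMUSG00002076297.1, which had 21, 24 and 16 ESC counts and 16, 13 and 12 neuron counts (log2 fold change 0.17, edgeR adjusted p = 0.638), and ENSMUSG00002076699.1, which had 15, 20 and 10 against 2, 1 and 3. The share of Nespas against ENSMUSG00002076297.1 went from 56.5% ± 7.55 to 12.3% ± 4.15.

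At the Snrpn-Ube3a locus on chromosome 7, the counts assigned to Ube3a had the largest fold change of the tested members with a symbol. Ube3a encodes a ubiquitin ligase whose loss from the maternal copy causes Angelman syndrome, and in neurons its paternal copy is silenced by the long transcript that runs from Snrpn through Snhg14 across it. Ube3a (chr7:58878498-58961284, plus strand) had 7, 7 and 5 ESC counts and 306, 409 and 160 neuron counts. The mean rose from 5.52 ± 1.14 to 422 ± 178 CPM (SD, n = 3 each), a log2 fold change of 6.23 (adjusted p = 2.40e-07 by edgeR, SE 0.42), or 75.2-fold. The groups lie far apart, though which strand these reads came from depends on the counting. Within the neurons replicate 2 was the highest at 609 CPM and replicate 3 the lowest at 256.

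The 3 genes opposite Ube3a had log2 fold changes between -0.59 and 0.90. Snhg14 (chr7:58957672-59625507, minus strand, 1803 exonic bases shared) had 700, 478 and 565 ESC counts and 263, 379 and 166 neuron counts. Its log2 fold change was -0.35 (adjusted p = 0.182 by edgeR, SE 0.23), and it passed as a fall in 5 of 15 alternative settings. Gm44560 (2025 bases shared) fell by 0.59 on the log2 scale (adjusted p = 6.43e-05 by edgeR, SE 0.13), with 548, 417 and 449 counts in ESC and 195, 217 and 145 in neurons, though with total-count scaling the value was 0.14. 9330162G02Rik (1796 bases shared) rose by 0.90 on the log2 scale (adjusted p = 1.29e-08 by edgeR, SE 0.12), with 404, 326 and 318 counts in ESC and 436, 432 and 301 in neurons. With scaling on genes sharing no exonic base its value was 0.01 and did not pass. Within a pair, Ube3a took 1.10% ± 0.30 of its counts with Snhg14 in ESC and 51.6% ± 2.37 in neurons. Against Gm44560 its share went from 1.34% to 59.6%, and against 9330162G02Rik from 1.78% to 41.5%. These 3 shares have the counts of Ube3a in common and are not independent of each other.

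The other genes of that region were nearly without counts. Snrpn, which encodes a splicing protein expressed from the paternal copy, had 2, 1 and 1 counts in ESC and 0 in neurons. Gm18908, which shares 148 bases with Snrpn on the opposite strand, rose from 3, 0 and 3 counts to 41, 23 and 26 (log2 fold change 4.55, SE 0.46, edgeR adjusted p = 2.08e-11). Ndn and Magel2, related genes of the MAGE family expressed from the paternal copy, had 0, 1 and 0 against 0, 2 and 3 counts, and 0 in all libraries.

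The Peg3 locus had low counts on its members. Usp29, a ubiquitin protease gene divergent from Peg3, had 30, 12 and 19 ESC counts and 2, 0 and 0 neuron counts, a rate 18.1 times higher in ESC (95% counting interval 4.81 to 153, exact conditional; it covers counting error only). Peg3, a zinc finger gene of the paternal copy, had 8, 3 and 6 ESC counts and 1, 2 and 1 neuron counts, and Zim1 had 0 in all. Zim3, a zinc finger gene opposite Usp29 with 2582 of its 3755 exonic bases shared, rose by 1.10 on the log2 scale (adjusted p = 1.17e-08 by edgeR, SE 0.15), with 210, 123 and 164 counts in ESC and 249, 223 and 160 in neurons. With scaling on genes sharing no exonic base, Zim3 did not pass (0.21). Usp29 held 10.6% of the counts of the pair in ESC and 0.27% in neurons.

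On distal chromosome 7, the members again had few counts and the genes opposite them more. Kcnq1ot1, the antisense RNA that silences its neighbours on the paternal copy, had 1, 3 and 1 ESC counts and 3, 4 and 2 neuron counts over 93092 exonic bases. Opposite it, Kcnq1, a potassium channel gene that shares 121 bases, rose from 2, 1 and 0 counts to 8, 11 and 14 (log2 fold change 4.02, SE 0.59, edgeR adjusted p = 1.03e-07). This value rested on 3 ESC counts, and it was 4.65 without ESC replicate 1 and 3.42 without ESC replicate 3. Of the 4 unnamed genes within the Kcnq1ot1 exon, ENSMUSG00002075855.1 had 3, 3 and 1 against 26, 15 and 31 counts, ENSMUSG00002076721.1 had 0, 2 and 1 against 17, 13 and 13, and ENSMUSG00002076158.1 had 3, 4 and 2 against 14, 7 and 7. All 3 rose, with log2 fold changes of 4.03, 4.39 and 2.33 (edgeR adjusted p = 5.76e-10, 6.67e-09 and 3.55e-05). The second, ENSMUSG00002076721.1, was 3.68 without ESC replicate 1 and 5.19 without ESC replicate 2. Like Kcnq1, these 3 met the count filter through their neuron counts alone, so a rise was likely from how they entered the test. Their shared direction is therefore not a result about the locus. The fourth, ENSMUSG00002074922.1, had 5, 1 and 4 against 13, 14 and 5 counts and was not tested.

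Cdkn1c, a cell cycle inhibitor of the maternal copy in the same cluster, had 0, 0 and 2 counts in ESC and 0 in neurons, and Phlda2 1, 0 and 1 against 0. Gm44732, which shares 625 of its 635 bases with Cdkn1c on the opposite strand, had 66, 68 and 56 ESC counts and 54, 34 and 27 neuron counts (log2 fold change 0.01, SE 0.23, edgeR adjusted p = 0.978). H19, a maternal noncoding RNA, had no ESC count and 1, 2 and 0 neuron counts, and Igf2, the growth factor beside it, had 0 in all 6. The 2 short unnamed genes opposite H19 were higher in ESC: ENSMUSG00002075214.1 had 17, 13 and 12 counts against 1, 5 and 1, and ENSMUSG00002076121.1 had 11, 7 and 14 against 3, 0 and 1. Igf2os, opposite Igf2, had 0, 1 and 0 against 2, 1 and 1.

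Mest and Copg2 meet tail to tail on chromosome 6 (912 exonic bases shared), and neither passed the test. Mest, a hydrolase gene of the paternal copy, had 73, 34 and 50 ESC counts and 25, 32 and 22 neuron counts, with overlapping CPM and a log2 fold change of -0.22 (adjusted p = 0.419 by edgeR, SE 0.26). Copg2, a coatomer subunit of vesicle transport, had 648, 702 and 611 against 496, 449 and 360 counts and a log2 fold change of 0.14 (adjusted p = 0.253 by edgeR, SE 0.12). The share of the pair assigned to Mest also overlapped between the groups, at 7.44% ± 2.75 and 5.74% ± 0.93 (SD, n = 3 each; exact two-sided permutation p = 0.5).

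Zrsr1, a retrogene of a splicing factor, lies within Commd1 on chromosome 11 and shares 203 exonic bases with it. Zrsr1 had 7, 4 and 7 ESC counts and 14, 15 and 9 neuron counts, a rise of 1.80 on the log2 scale (adjusted p = 0.000149 by edgeR, SE 0.42). Commd1, which encodes a protein of copper handling, had 292, 207 and 264 against 159, 132 and 147 counts, a log2 fold change of -0.05 (adjusted p = 0.765 by edgeR, SE 0.14). The share of the pair assigned to Zrsr1 went from 2.27% to 8.02%, with no overlap.

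The members with no gene opposite have no partner to share reads with, but which strand's reads they hold depends wholly on the setting of the counting. Grb10, an adaptor that restrains insulin and growth factor signalling and is used from the paternal copy in neurons, had 42, 22 and 30 ESC counts and 2, 0 and 2 neuron counts, falling by 3.70 on the log2 scale (adjusted p = 6.95e-08 by edgeR, SE 0.54). H13, a signal peptide peptidase whose intron holds the retrogene Mcts2, had 36, 37 and 29 against 3, 3 and 5 counts, falling by 2.44 (adjusted p = 1.28e-06 by edgeR, SE 0.41). With Meg3, all 3 tested members of this class fell. Each met the count filter through its ESC counts, so a fall was likely from how they entered the test. Their shared direction is therefore not a result about the class. The nearest background is a wider set, all tested genes sharing no exonic base, which also holds genes opposite introns only. Of that set 57.9% rose and 29.5% fell, and of the genes sharing some, 41.2% and 43.4%. The shares for genes with no gene opposite alone were not worked out. Mcts2 had 3, 1 and 1 against 0, 1 and 1 counts.

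Igf2r, the receptor that clears insulin-like growth factor 2, and Airn, its antisense RNA, had low counts. Igf2r had 16, 13 and 11 ESC counts and 1, 3 and 4 neuron counts, and Airn 0, 0 and 1 in ESC and 2, 4 and 3 in neurons. Neither was tested, and the CPM of the groups did not overlap in either gene. Over the 25 untested members, the CPM of 9 did not overlap, with 3 higher and 6 lower in neurons. The share over all untested genes was not worked out, so this count has no background beside it. Some of the 9 rest on very few counts, such as Peg13 (1, 0 and 0 against 2, 1 and 1). At that level the ranges also follow depth, since a count stands for more CPM in a neuron library. Among the 14 tested, 10 did not overlap, where 86.4% of all genes tested did not (47.6% higher and 38.9% lower). The remaining members had few counts in both cell types. Trappc9 had 8, 2 and 2 counts against 0, 2 and 1, with Peg13 within its intron at 1, 0 and 0 against 2, 1 and 1 and the potassium channel gene Kcnk9 at 0 against 1, 2 and 0. Peg10, a retrotransposon-derived gene, had 4, 1 and 0 against 0, 1 and 1, and Sgce, its divergent neighbour, 1, 0 and 2 against 0, 0 and 1. Plagl1, a zinc finger gene, had 5, 4 and 0 against 1, 0 and 2, and Impact, a regulator of translation, 3, 2 and 3 against 0, 1 and 1. The unnamed gene opposite Plagl1, ENSMUSG00002076823.1, had 6, 5 and 1 against 13, 4 and 4 counts.

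**Figure D3:**
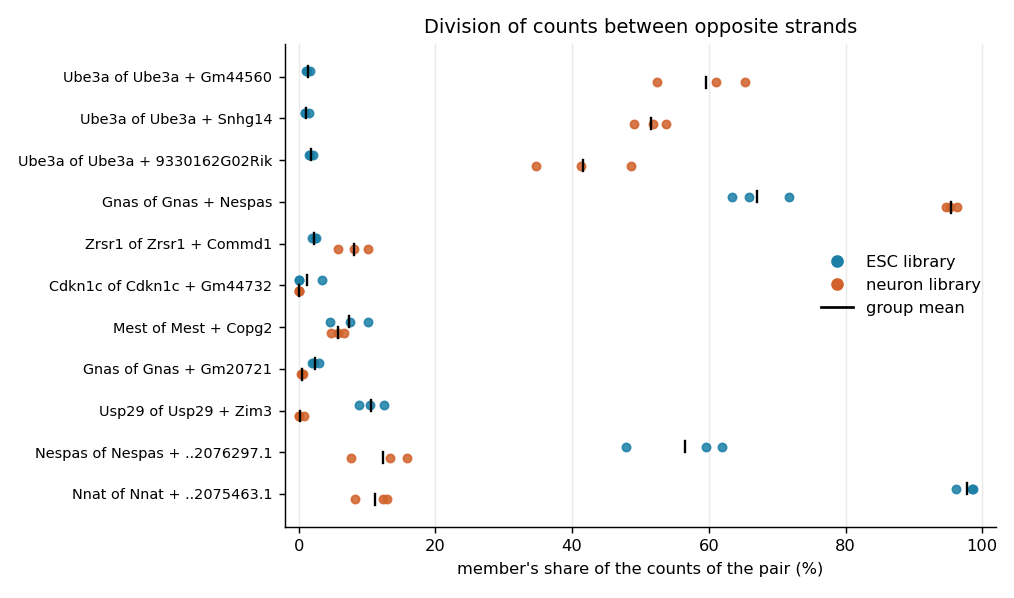
Share of each pair's counts assigned to the member, in percent, for the 11 pairs with at least 10 counts in every library other than those of Rtl1 with microRNA genes, with a point per library and a tick at each group's mean. The shares of 9 pairs do not overlap between ESC and neurons, and those of Mest with Copg2 and Cdkn1c with Gm44732 do.

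Across the pairs, the division of counts between strands differed more often than not. Of 28 pairs, 17 had at least 10 counts in every library, and 6 of these are Rtl1 with a microRNA gene at 0 counts, whose share is 100% by construction. Of the other 11, the shares of 9 did not overlap between the groups. Among all pairs in the table with as many counts, 59.6% did not overlap. Each of the 9 had an exact two-sided permutation p of 0.1, the smallest possible here. The smallest Benjamini-Hochberg adjusted p was 0.189, with the adjustment run over all 17 pairs, the 6 of Rtl1 included. The member took the smaller share in neurons in Nnat, Nespas against ENSMUSG00002076297.1, Gnas against Gm20721 and Usp29, and the larger share in Gnas against Nespas, the 3 pairs of Ube3a, and Zrsr1.

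The counts of each member and of every gene sharing an exonic base with it on the opposite strand were also added, which gives 35 units. For reads within shared bases the sum does not depend on the strand. Reads on exons that are not shared still do, as do all reads of the 22 units that hold 1 gene, so the sum is not a strand-free value of a member. Of the 15 units tested, 7 rose, 5 fell and 3 did not pass, against 85.6% of all 7139 units and genes called in that fit. Nnat with its opposite gene rose by 4.91 on the log2 scale (adjusted p = 1.03e-28 by edgeR, SE 0.13), Gnas, Nespas and their opposite genes by 2.57 (adjusted p = 5.17e-25 by edgeR, SE 0.09), and Kcnq1ot1 with its opposite genes by 3.29 (adjusted p = 3.95e-14 by edgeR, SE 0.26). The unit of Snrpn rose by 3.86 (adjusted p = 7.65e-11 by edgeR, SE 0.41) and that of Rtl1 by 1.75. That of Usp29 rose by 0.94 (0.04 and not past the threshold with scaling on genes sharing no exonic base). The unit of H19 fell by 1.63 (adjusted p = 0.000473 by edgeR, SE 0.41). Genes that are not members set several of these values. All neuron counts of the Snrpn unit were of Gm18908, and all ESC counts of the H19 unit were of its unnamed opposite genes. In the unit of Gnas and Nespas, Gm20721 held 9059, 8137 and 7566 of 9133, 8194 and 7608 neuron counts. Most neuron counts of the Kcnq1ot1 and Usp29 units were also of opposite genes.

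At Ube3a the difference was smaller in the sum, although Snhg14, Gm44560 and 9330162G02Rik each share only 8.71% to 9.82% of its exonic bases. Ube3a with its 3 opposite genes rose by 0.44 on the log2 scale (adjusted p = 0.00969 by edgeR, SE 0.14), or 1.36-fold, where Ube3a alone rose 75.2-fold. Even this small rise depended on single libraries: it was 0.36, 0.33, 0.48 and 0.14 without ESC replicate 2, ESC replicate 3, neuron replicate 1 and neuron replicate 2 (edgeR adjusted p = 0.256, 0.0622, 0.0531 and 0.194), and -0.46 with scaling on genes sharing no exonic base. At Nnat, in contrast, the summed counts rose 30.0-fold, more than Nnat alone. The units of Mest with Copg2 (0.12), Zrsr1 with Commd1 (0.04) and Cdkn1c with Gm44732 (-0.01) did not pass (edgeR adjusted p = 0.315, 0.774 and 0.980).

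**Figure D4:**
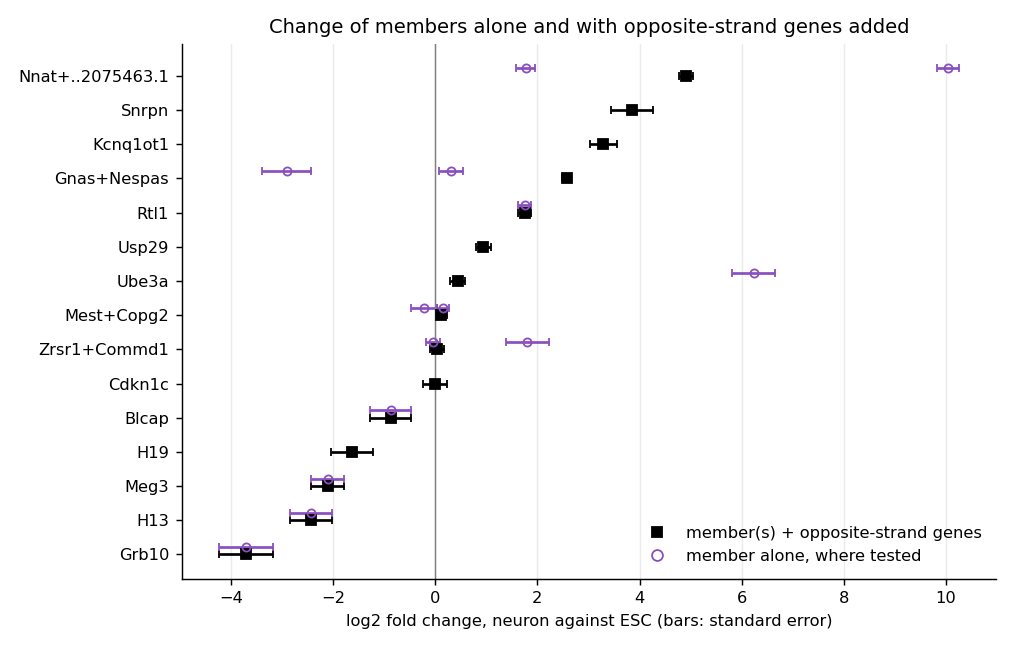
Log2 fold change, neuron over ESC, of each tested member alone (open circles) and of the 15 tested units with the opposite-strand genes added (black squares), with bars of 1 standard error. Units are named by their members only, though genes that are not members can hold most of the counts. Ube3a stands at 6.23 alone and at 0.44 as a unit, and Gnas at 0.31 and 2.57.

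The other imprinted genes and the factors that keep imprints were read from lists made by function. Of 50 other imprinted genes, 49 were in the table and 8 had enough counts to test. The 4 called were 50% of those tested, against 85.6% of all genes (47.0% higher, 38.6% lower). Kcnq1 (above), Ampd3, an AMP deaminase, and Jade1, a chromatin factor, rose by 4.02, 4.33 and 1.22 on the log2 scale, Chrac1, a chromatin remodelling subunit, fell by 1.77, and 4 did not pass. Kcnq1 and Snhg14 on this list also lie opposite a member. The value of Ampd3 was 3.72 without ESC replicate 3, and Jade1 did not pass (0.33) with scaling on genes sharing no exonic base. The median over the 8 was 0.15. Of 24 genes for the upkeep of imprints, 8 were tested and 4 fell, which is 50%, where 38.6% of all genes tested fell and 85.6% were called. Uhrf1, which brings the maintenance methyltransferase to replicated DNA, fell by 4.51 on the log2 scale. Kdm1b, a histone demethylase of the oocyte, fell by 3.99, Daxx, a histone chaperone, fell by 3.05, and Trim28 fell by 1.05 (edgeR adjusted p = 0.00262). The value of Uhrf1 was -5.33 without neuron replicate 1, and Trim28 did not pass with total-count scaling (-0.32, edgeR adjusted p = 0.351). Zfp57, with 67, 39 and 55 counts in ESC and 39, 43 and 34 in neurons, had a log2 fold change of 0.29 (edgeR adjusted p = 0.242). The median over those 8 was -0.72. The count called was 8 in place of 4 when any 1 of the 3 neuron libraries was left out, and for the other imprinted genes it was 7 in place of 4 without neuron replicate 2; more genes of either list were then tested.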

How the data were processed

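The samples were 3 ESC and 3 cortical neuron libraries of polyadenylated RNA, grouped by their titles. The authors deposited 1 table of raw counts per gene with positions, strand and length. Per the submitters' processing notes, cutadapt, STAR and RSEM were used with GRCm39 (mm39). The column names are those of STAR alignments per the file headers, and the counting tool and its strand setting are not given in the sources used here. The deposited gene length equalled the merged exons for 100% of genes, and no column of sample values stayed unmapped. Library names of neuron replicates 2 and 3 include the word "empty", whose meaning is not given.

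Symbols came from GENCODE release M21 by identifier, for 91.3% of genes. Exon overlaps on opposite strands (at least 1 base) were found with bedtools 2.31.1. Counts were analysed as deposited with edgeR 4.0.16 (R 4.3.3): filterByExpr (minimum count 10) left 7150 genes, TMM factors were 0.775, 0.779 and 0.774 for ESC and 1.30, 1.28 and 1.29 for neurons, and groups were compared with estimateDisp, robust glmQLFit and glmQLFTest over all 6 libraries without covariates. P-values were adjusted by Benjamini-Hochberg over all genes tested, with a threshold of 0.05. CPM used the TMM-scaled size of the genes kept, and the SE is the log2 fold change over the square root of F, which is approximate. The fit was checked on simulated data. Shares within pairs were compared by exact two-sided permutation tests with SciPy 1.17.1. Sequences were read from RefSeq tables (GRCm38.p6).

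The text names every member, each opposite gene with at least 10 counts in a library, and the called genes of the lists, at most 8 a list, with Zfp57 and Trim28 in any case. The members and lists were chosen with earlier results of these data known. Alternatives covered scaling, filters, a replicate block, the overlap minimum (100 bases), DESeq2 1.42.0, limma 3.58.1 (voom with quality weights) and leaving out each library.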

Additional observations from a re-analysis of the deposited data

How the results depend on the processing

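Of the 14 tested members, 9 kept direction and side of the threshold in every alternative (Nnat, ENSMUSG00002075463.1, Meg3, Rtl1, Nespas, Ube3a, Grb10, Zrsr1 and H13), as did 6 of 11 units of several genes and 11 of 20 other named genes. Against the reported median over the 7150 genes, total counts shifted it by 0.73, upper-quartile factors by 0.22 and TMM on genes sharing no exonic base by -0.89 (log2). The 2 filters tested other sets of genes (28820 unfiltered, 5971 when filtered by mean count), so their medians are not compared. These values changed sign. With total counts, Mest was 0.51, Commd1 0.69, Snhg14 0.38, Gm44560 0.14 and the Cdkn1c unit 0.72. With upper-quartile factors, Commd1 was 0.17 and the Cdkn1c unit 0.21. With TMM on genes sharing no exonic base, Gnas was -0.58, Copg2 -0.75, Gm44732 -0.89, ENSMUSG00002076297.1 -0.72, Zfp57 -0.61, and the units of Mest with Copg2 -0.78, Ube3a -0.46 and Zrsr1 with Commd1 -0.86. Without a count filter, Copg2 was -0.017, Gm44732 -0.15 and the units of Mest with Copg2 -0.038 and Zrsr1 with Commd1 -0.12. With a mean of at least 10 counts, Mest was 0.14, Commd1 0.32, Snhg14 0.013 and the Cdkn1c unit 0.35. Gm44732 was -0.0034 with DESeq2 size factors and -0.012 with the DESeq2 Wald test, and the Cdkn1c unit 0.038 with limma-voom. With libraries left out in turn, Copg2 ran from -0.042 to 0.22, Gm44732 from -0.23 to 0.11, ENSMUSG00002076297.1 from -0.055 to 0.32, and the units of Cdkn1c from -0.24 to 0.10, Mest with Copg2 from -0.044 to 0.17 and Zrsr1 with Commd1 from -0.086 to 0.058.

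Blcap did not pass in 7 of 12 alternatives, with edgeR adjusted p up to 0.745. Usp29 with Zim3, 9330162G02Rik, Zim3 and Jade1 did not pass with TMM on genes sharing no exonic base (0.04, 0.01, 0.21 and 0.33). Some genes not past the threshold as reported passed it in the same direction in other alternatives. These were Snhg14 in 5 of 15, Gnas, Copg2 and Zfp57 in 3 of 15 each, and Mest, Commd1, Gm44732 and ENSMUSG00002076297.1 in 1 of 15 each.

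Members called ranged from 9 to 11 when libraries were left out, units from 9 to 12, pairs from 9 to 10, other imprinted genes from 4 to 7 and maintenance genes from 3 to 8. Those 2 lists had 7 and 8 calls with TMM on genes sharing no exonic base and 12 each without a count filter. When 1 library is left out, the test stays possible with 2 samples in its group.

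The titles share replicate numbers. Deviations from the group mean had r from -0.02 to 0.0027 between same-numbered samples and from -0.011 to 0.011 between the others. In libraries this shallow, counting noise can hide a shared preparation, so these values cannot settle whether the numbers pair samples. With a replicate block, 9 members, 11 units, 5 other imprinted and 4 maintenance genes were called, and Gm44732 was -0.0016. Depth limits the rest: 25 members had too few counts to test.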
